A study of Rattus norvegicus with 58 samples.

Results

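The 10 gastrocnemius libraries from 18-month-old rats, taken from 58 libraries in all, are described here by what varied between them together with Chrna1, the gene for the alpha subunit of the muscle acetylcholine receptor. The 11397 genes with a mean of at least 50 reads over these 10 libraries, of 32545 genes in the table, were ranked by the Spearman correlation (rho) of their normalised level with that of Chrna1. The 100 highest and the 100 lowest genes are called the ends of the rank. The rank was made from the 18-month gastrocnemius values themselves, so that rho at 18 months is a description and carries no test, and the tests below are of measurements that the rank did not use: gastrocnemius at 8 and 24 months, and triceps, for which the gastrocnemius Chrna1 of the same rat served as the predictor at 18 months.

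The study sequenced RNA from the gastrocnemius, a calf muscle of the hindlimb, and the triceps, a forelimb muscle, of the same male Wistar rats. Adult rats were 8 months old (n = 10), early-sarcopenic rats 18 months (n = 10) and sarcopenic rats 24 months (n = 9), without any treatment or genetic change, and each rat gave 1 library per muscle. Sarcopenia is the loss of muscle mass and function with age. Profiling both muscles served to separate changes with age that are particular to the hindlimb from those that both limbs share. Age is the only difference between the groups of a muscle that the labels give, and each library is whole muscle, so that fewer cells of a type and less RNA per cell cannot be told apart.

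The muscle acetylcholine receptor is a channel of alpha, beta, delta and epsilon subunits that is packed under the nerve terminal, where the nerve's signal opens it and starts contraction. In innervated fibres, electrical activity holds the transcription of its subunit genes down outside the junction, and when a fibre loses its nerve these genes, with the genes of the proteins that cluster the receptor, are transcribed along the whole fibre. Myogenic factors that bind E-box motifs in their promoters take part in this response. Adult fast fibres such as those of the gastrocnemius live largely on glycolysis and stored glycogen.

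To show the sequences before these start sites, 250 bases upstream are given for Chrna1, for the ranked genes of the postsynaptic list that had an entry, and for a gene near each end of the rank (RefSeq, GRCr8, read in the direction of the gene), with each CAGCTG in capitals, an E-box that reads the same on both strands.
Chrna1, chr3:78877354-78877603, minus strand: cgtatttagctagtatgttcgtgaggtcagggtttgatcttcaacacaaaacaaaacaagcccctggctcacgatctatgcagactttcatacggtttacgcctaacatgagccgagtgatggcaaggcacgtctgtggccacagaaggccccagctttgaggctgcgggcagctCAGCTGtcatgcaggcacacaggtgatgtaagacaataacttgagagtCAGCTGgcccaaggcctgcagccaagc
Chrnb1, chr10:55015108-55015357, minus strand: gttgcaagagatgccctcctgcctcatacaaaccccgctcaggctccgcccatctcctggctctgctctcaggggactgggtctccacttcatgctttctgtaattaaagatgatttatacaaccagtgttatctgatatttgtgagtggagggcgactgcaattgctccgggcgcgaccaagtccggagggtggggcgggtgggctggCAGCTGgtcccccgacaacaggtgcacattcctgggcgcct
Chrne, chr10:55834155-55834404, minus strand: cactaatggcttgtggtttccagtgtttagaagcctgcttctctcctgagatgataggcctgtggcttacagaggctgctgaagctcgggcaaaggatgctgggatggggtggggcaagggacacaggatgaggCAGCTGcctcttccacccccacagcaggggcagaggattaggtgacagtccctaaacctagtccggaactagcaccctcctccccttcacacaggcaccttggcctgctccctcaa
Musk, chr5:77853486-77853735, plus strand: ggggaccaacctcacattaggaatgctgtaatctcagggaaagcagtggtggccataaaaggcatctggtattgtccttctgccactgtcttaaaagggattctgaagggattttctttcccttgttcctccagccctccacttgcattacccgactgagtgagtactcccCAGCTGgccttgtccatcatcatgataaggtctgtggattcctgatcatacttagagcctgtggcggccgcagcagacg
Klhl2, chr16:29626987-29627236, plus strand: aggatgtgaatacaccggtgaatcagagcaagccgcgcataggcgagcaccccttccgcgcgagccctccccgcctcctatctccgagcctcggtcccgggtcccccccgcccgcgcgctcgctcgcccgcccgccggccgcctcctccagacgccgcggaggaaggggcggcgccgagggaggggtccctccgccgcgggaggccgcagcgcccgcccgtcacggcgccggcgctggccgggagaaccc
Pfkm, chr7:131113849-131114098, plus strand: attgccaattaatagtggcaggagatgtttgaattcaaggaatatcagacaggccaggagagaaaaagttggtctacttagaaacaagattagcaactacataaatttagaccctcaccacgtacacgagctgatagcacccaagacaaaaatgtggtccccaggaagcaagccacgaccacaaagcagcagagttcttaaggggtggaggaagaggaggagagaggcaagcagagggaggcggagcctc
Chrna1 held 2 copies of CAGCTG, Chrnb1, Chrne and Musk held 1 each, and Klhl2 and Pfkm held 0. Of all 27457 promoters of this length, 11.9% held the motif, and of the 1330 ranked genes with a symbol and an entry 14.3% did, against 2 of the 20 such genes among the 100 highest and 6 of the 37 among the 100 lowest. The more general E-box CANNTG, which includes CAGCTG, was in 65.2% of all promoters and 56.6% of those 1330, in 11 of those 20 and in 23 of those 37. Ncam1 and Mgp, described below, had no entry. A match is a description of the letters in this window.

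The 18-month gastrocnemius libraries held 12767191 to 32351192 reads on genes. Between pairs of them, the chi-square of the counts per degree of freedom was 24.5 to 302, where counting error alone gives about 1. With 1 library per rat, differences between rats and between library preparations cannot be told apart. In a principal component analysis of the 10 libraries, the first component took 37.8% of the variance, and rats 14 and 17 stood together at its low end. Rat 14 also had the fewest reads. The scaling factors of the trimmed mean of M-values (TMM) lay between 0.924 and 1.14 and had a rho of 0.71 with Chrna1, the share of reads of the 10 most abundant genes had a rho of -0.78, and total reads had one of 0.26. Scaling by library totals instead of TMM moved the median rho of all ranked genes from -0.02 to 0.33, and the signs of genes with small rho depend on the scaling.

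Chrna1 varied more between the 18-month gastrocnemius libraries than most genes. Its level, in TMM-normalised counts (CPM, reads scaled to a common library size; TMM CPM below), was 13.0 in rat 19, 20.2 in rat 18, 26.7 in rat 14, 28.6 in rat 17, 44.0 in rat 13, 45.5 in rat 12, 52.6 in rat 16, 68.0 in rat 11, 138 in rat 15 and 139 in rat 20. The values were spread over this range, with rats 15 and 20 above the rest, and the highest was 10.7 times the lowest. The level rested on 190 to 4857 reads per library. On the log2 scale the SD was 1.10, a value that 126 of the 11397 ranked genes exceeded, against a median of 0.25 over the ranked genes. This was not particular to these libraries. In the other groups of muscle and age, 44 (24-month gastrocnemius) to 283 (18-month triceps) of the ranked genes exceeded the SD of Chrna1. The widest spread of Chrna1 was in 24-month triceps, with an SD of 1.31 and a highest value 19.2 times the lowest.

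At 8 months, gastrocnemius Chrna1 lay between 3.34 and 16.8 TMM CPM with a median of 6.51 (n = 10). At 24 months it lay between 22.9 and 283 with a median of 155 (n = 9). The 18-month range thus overlapped both, with its lowest rat inside the 8-month range and 8 of the 10 rats inside the 24-month range. The low end of that range was rat 47 alone, with the next 24-month rat at 104, and without rat 47 only rats 15 and 20 lay inside it, 2 of the 10. The log2 fold change from 8 to 24 months was 4.19 ± 0.45 (SE), with an adjusted p of 1.52e-10 by edgeR's quasi-likelihood test. In the triceps of the same 18-month rats Chrna1 was 2.03 to 8.67 TMM CPM with a median of 3.93, and the highest triceps value lay below the lowest gastrocnemius value.

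**Figure D1:**
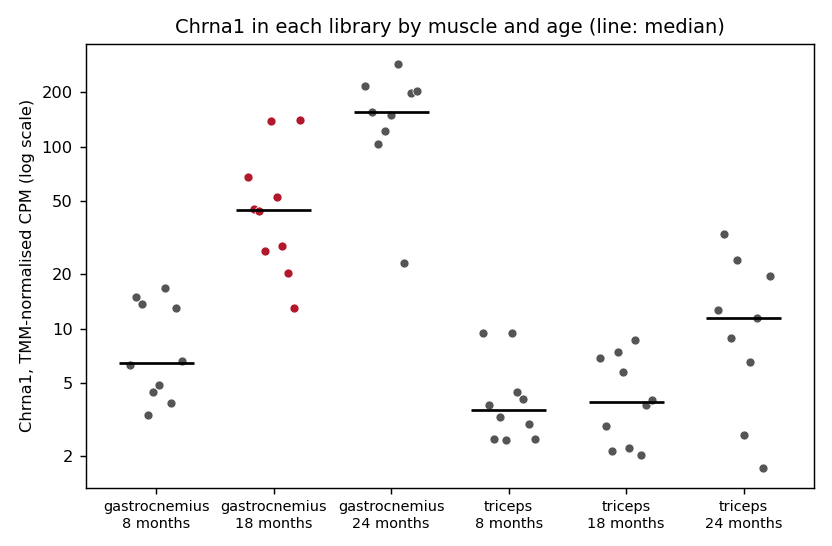
Chrna1 in TMM-normalised CPM on a log axis, 1 point per library, for gastrocnemius and triceps at 8, 18 and 24 months, with the 18-month gastrocnemius libraries in red and a line at each median. The red points span 13.0 to 139 and bridge the medians of 6.51 at 8 and 155 at 24 months, while the 18-month triceps points lie at 2.03 to 8.67.

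By the SD of log2 level, spread between gastrocnemius libraries was widest at 18 months for many genes. For Chrna1 this SD was 0.82 at 8, 1.10 at 18 and 1.05 at 24 months. Its ratio of highest to lowest was 5.01, 10.7 and 12.4 at these ages, and so largest at 24 months. The ranked genes were kept by their reads at 18 months alone. Among the 11397 ranked genes, 6035 had their largest SD of log2 level at 18 months, 3331 at 24 months and 2031 at 8 months in gastrocnemius. The median SD was 0.20 at 8, 0.25 at 18 and 0.22 at 24 months. Over the same genes in triceps it was 0.19, 0.24 and 0.25 at these ages, so that a wider spread at 18 than at 8 months was not particular to gastrocnemius. Each 18-month library was also placed between the 8-month mean (0) and the 24-month mean (1) over the 628 ranked genes regulated between these ages. The lowest 18-month position was 0.068 in rat 18, the median 0.286 and the highest 0.884 in rat 20, whereas the 8-month libraries lay between -0.126 and 0.103 and the 24-month libraries between 0.50 and 1.36. Rats 11, 15 and 20, at 0.617, 0.739 and 0.884, lay inside the range of the 24-month libraries, and the position had a rho of 0.93 with Chrna1 over the 10 rats.

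Of the 11397 genes, 316 had a rho of 0.8 or more with Chrna1 and 422 had a rho of -0.8 or less. Without rats 14 and 17 these counts were 532 and 728, without rat 11 alone 545 genes reached 0.8, and without rat 14 alone 681 reached -0.8. With library totals in place of TMM they were 704 and 117, and 57 of the 100 highest and 51 of the 100 lowest genes were also in the 100 of that rank. At the limit of the 100 highest genes, ENSRNOG00000018584 was just inside and ENSRNOG00000002041 just outside, both with a rho of 0.867 and with a Pearson r of 0.816 and 0.814. At the limit of the 100 lowest, Ldha (lactate dehydrogenase) was inside and Det1 outside, both with a rho of -0.891 and with a Pearson r of -0.875 and -0.859.

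Symbols were at hand only for genes in the study's supplementary gene list, which the study chose on these same libraries for an unequal change with age in the muscles. Such a symbol was held by 1698 ranked genes, by 27 of the 100 highest and by 51 of the 100 lowest. Named genes therefore represent that list, whose median rho was -0.22, and not the whole rank. Their tests for age are not independent of that choice. Of the 1698, 658 had a rho above 0 and 1040 below 0, 58 one of 0.8 or more and 193 one of -0.8 or less. Over all 11397 ranked genes 5562 were above and 5835 below 0. Under library totals 951 of the 1698 and 8483 of the 11397 were above 0. The counts by sign of each list below are to be set beside these.

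Among genes with a symbol, Mgp, which codes for matrix Gla protein, an inhibitor of calcification, had the highest rho, 0.964. Its TMM CPM was 74.3 at the lowest, 136 at the median and 242 at the highest of the 10 rats. Rats 18 and 19 were the lowest and rats 15 and 20 the highest, as for Chrna1. Klhl2, an adaptor of a cullin ubiquitin ligase, followed with a rho of 0.952 and values of 4.90, 6.11 and 10.2 as lowest, median and highest. Tec, a cytoplasmic tyrosine kinase, had a rho of 0.939 and values of 3.87, 5.37 and 13.1. In Tec the 3 rats with the most Chrna1, rats 11, 15 and 20, stood at 12.6, 9.04 and 13.1 and no other rat exceeded 5.80.

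The other 12 of the 15 highest genes with a symbol lay between a rho of 0.903 and 0.915. They held parts of intracellular transport, namely Arfgap3 of the Golgi and Snx8, a sorting nexin. Rcn1 codes for a calcium-binding protein of the endoplasmic reticulum. Lysosomal genes were among the 12 with Ctsb, for cathepsin B, and Ifi30, a thiol reductase. Shc1 and Sh3bp2 are signalling adaptors, and Timp1 inhibits matrix metalloproteinases. Tuba1b codes for a tubulin, Eef1a1 for the translation elongation factor of most tissues other than adult muscle, Lnx2 for a ubiquitin ligase and Asl for argininosuccinate lyase. Timp1 had the largest ratio of highest to lowest of these, from 3.95 over a median of 6.29 to 22.6 TMM CPM, and Shc1 the smallest, from 42.1 over 50.4 to 56.2. The 4 rats with the most Chrna1 had the 4 highest Timp1 values, at 11.3 to 22.6, and the other 6 lay at 3.95 to 6.34.

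At the other end, Pfkm, the muscle form of phosphofructokinase and the committing step of glycolysis, had the lowest rho of the genes with a symbol, -0.976. Its TMM CPM was 4228 in rat 19 with the least Chrna1 and 1682 in rat 20 with the most, with a median of 3251. The 4 rats with the most Chrna1 had the 4 lowest Pfkm values, at 2243 or less, and no other rat was under 3141. Leaving out each rat in turn kept the rho of Pfkm between -0.983 and -0.967, and library totals moved it to -0.915.

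Others of the 15 lowest genes with a symbol also serve carbohydrate use. Fbp2, the muscle fructose bisphosphatase, had a rho of -0.952 and values of 58.4, 97.1 and 169 TMM CPM as lowest, median and highest. Aldoa, aldolase A, had a rho of -0.939 and ran from 5633 over 11787 to 14445. For Aldoa, rats 14, 17, 18 and 19 lay close together at 14004 to 14445, and the values of the 4 rats with the most Chrna1 were 7843 or less.

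Further genes of this end were Asb4 and Asb11, adaptors of ubiquitin ligases, Klhl21 of the cullin adaptor family, the transcription factor Foxo4, Tmem38a, a potassium channel of the sarcoplasmic reticulum, the phosphatase Ppm1a, the RNA exonuclease Dis3l, Fyco1, which moves autophagosomes, Cnst, Nrd1 and Rabgef1. Their rho was between -0.952 and -0.939. Asb4 had the largest ratio of highest to lowest of them, from 8.46 over 19.3 to 32 TMM CPM. Under library totals all 30 genes (15 at each end) kept their sign, but Dis3l, Ppm1a and Nrd1 were reduced to -0.503, -0.588 and -0.624. Without a symbol, ENSRNOG00000042516 had the lowest rho of all ranked genes, -0.988, followed by ENSRNOG00000025868 at -0.964, and the highest genes without a symbol were ENSRNOG00000002781 and ENSRNOG00000023226, both at 0.952.

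**Figure D2:**
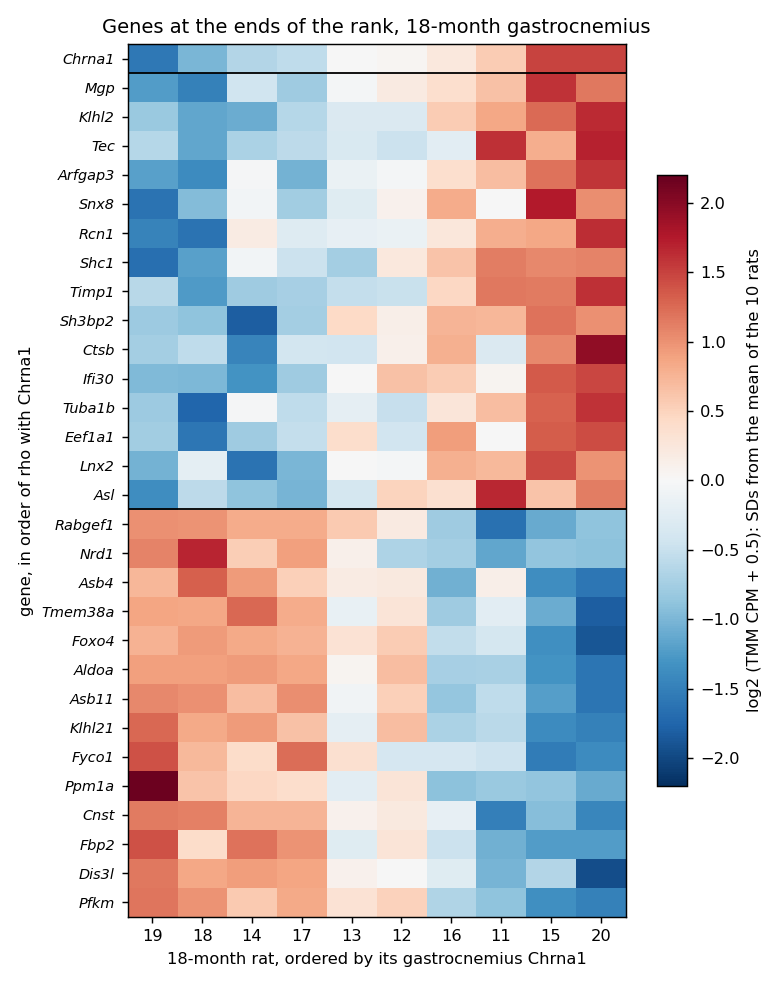
Level of Chrna1 and of the 15 highest and 14 of the 15 lowest genes with a symbol in each 18-month rat, as the number of SDs from the gene's mean over the 10 rats on the log2 (TMM CPM + 0.5) scale, with rats ordered by their Chrna1 from left to right. The upper 15 genes change from blue to red and the lower 14 from red to blue along this order, which is the pattern that chose them.

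The postsynaptic list holds the other genes of the receptor's own site. Of its 15 listed genes, 6 had a symbol and 4 were ranked. All 4 ranked members of the postsynaptic list had a rho above 0, with a median of 0.33, and none reached 0.8. Of the 1698 with a symbol, 658 were above 0 and 58 reached 0.8. Ncam1, the neural cell adhesion molecule that denervated fibres express over their surface, had a rho of 0.721 and was 25.7, 48.5 and 116 TMM CPM as lowest, median and highest. Musk, the receptor kinase that agrin uses to cluster acetylcholine receptors, had a rho of 0.333 and values of 4.80, 9.90 and 19.9. Its highest rats were 14 and 17, at 18.2 and 19.9, which were among the 4 rats with the least Chrna1, and rat 20, with the most Chrna1, stood at 11.5.

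Chrne, for the epsilon subunit of the adult receptor, had a rho of 0.333 and values of 9.83, 11.9 and 28.4. Chrnb1, for its beta subunit, had a rho of 0.297 and values of 68.9, 89.7 and 134. Rat 14 had the highest value of both, and in Chrne it lay above the next rat, rat 11 at 19.1. The rho of Musk, Chrne and Chrnb1 was between 0.083 and 0.567 when each rat was left out in turn, and those of library totals were 0.345, 0.455 and 0.479.

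All 4 of these genes rose from 8 to 24 months by edgeR's quasi-likelihood test with Benjamini-Hochberg adjustment over all genes. By this test 21.4% of the ranked genes were higher and 26.3% lower at 24 months, and 555 and 1043 of the 1698 with a symbol. The study selected those symbols on these libraries, so the age changes of these genes are not independent evidence. The log2 fold change was 2.83 ± 0.28 (SE) for Ncam1, with an adjusted p of 1.35e-11. That of Musk was 2.83 ± 0.26 with an adjusted p of 2.41e-12. Chrne rose by 1.28 ± 0.28 and Chrnb1 by 0.52 ± 0.10 on the log2 scale, with an adjusted p of 0.000208 and 4.64e-05. The 18-month Musk values, 4.80 to 19.9, lay above all 8-month values, of which the highest was 3.41, while Chrna1 of rat 19 was still inside the 8-month range. Over the 9 rats of 24 months the rho with Chrna1 was 0.950 for Ncam1, 0.850 for Chrnb1, 0.633 for Musk and 0.617 for Chrne, and the slope on Chrna1 passed the test only for Ncam1 of these 4 genes (0.50 ± 0.10, adjusted p = 0.0125 by edgeR), against 0.895% of ranked genes called positive. Without rat 47, the 24-month rat with the least Chrna1, that call held (adjusted p = 0.0259). Whether these relations differ between 18 and 24 months was not tested.

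The list of denervation regulators held 14 ranked genes, of which 13 had a rho above 0 and 1, Hdac5, below 0, with a median of 0.65. Of the 1698 with a symbol, 658 were above 0, and 951 under library totals. Under library totals all 14 genes of the list were above 0. These genes carry symbols that the study selected on these libraries, so their direction is not independent evidence. Ankrd1, a stretch-responsive repeat protein of the sarcomere, had the highest rho, 0.867, and was 47.1, 89.9 and 679.9 TMM CPM as lowest, median and highest. Rats 11, 15 and 20 stood at 477, 354 and 679.9, and no other rat exceeded 106. Myf5, a myogenic transcription factor of satellite cells, had a rho of 0.855 and values of 2.16, 4.04 and 7.74.

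Kcnn3, a calcium-activated potassium channel of denervated fibres, had a rho of 0.758 and values of 24.9, 40.7 and 68.8. Runx1, a transcription factor that denervation induces in muscle, had a rho of 0.745 and ran from 9.87 over 21.4 to 51.4. Gadd45a, a stress gene that denervation induces, had a rho of 0.733 and ran from 20.8 over 63.5 to 192. In Kcnn3, Runx1 and Gadd45a, rat 14 was high for its Chrna1: its Gadd45a of 141 was close to the 143 of rat 20. Mustn1 followed at a rho of 0.709, Apln at 0.685, Krt18 at 0.624 and Scn3b at 0.503.

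The histone deacetylases of this list, which act between nerve activity and receptor transcription, had a rho nearer 0 at 18 months. Hdac4 had a rho of 0.358, and its values of 33.8 to 60.2 TMM CPM all lay above the 8-month range of 9.61 to 22.8. Hdac5 had a rho of -0.212, which became 0.139 under library totals. Myod1, a myogenic factor that binds E-boxes, had a rho of 0.20 and was 29.1, 52.3 and 119.8 as lowest, median and highest. The highest Myod1 was again in rat 14, and the next was 67.8 in rat 20. Tp63 and Hcn4, at 0.236 and 0.164, completed the list.

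Between 8 and 24 months, 12 of the 14 denervation regulators rose and 2, Hdac5 and Hcn4, fell at an adjusted p under 0.05. Over the 1698 ranked genes with a symbol 555 rose and 1043 fell. The largest of these changes was in Krt18, a keratin, whose 8-month libraries held at most 0.354 TMM CPM and whose 24-month libraries held 2.85 to 24.8. All 18-month libraries, at 0.822 to 6.99, lay above the 8-month range. On the slope on Chrna1 at 24 months, 5 of the 14 genes were called, all positive, namely Ankrd1, Kcnn3, Runx1, Gadd45a and Krt18, with adjusted p between 0.0104 and 0.0409 by edgeR, against 0.895% of ranked genes and 70 of the 1698 with a symbol. Without rat 47 only Runx1 of the 5 was called (adjusted p = 0.00874).

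The lists of the fast fibre and its fuel lay at the low end. Of 19 ranked genes of glycolysis and glycogen, 18 had a rho below 0 and 14 had one of -0.8 or less, with a median of -0.87, against -0.02 over all ranked genes and -0.22 over those with a symbol. Of the 1698 with a symbol, 1040 were below 0 and 193 at -0.8 or less. Library totals left 18 of the 19 below 0 and a median of -0.83, against 747 of the 1698 below 0. Eno3, the muscle enolase, had a rho of -0.915 and ran from 3851 over 6907 to 9287 TMM CPM. Pgk1, phosphoglycerate kinase, had a rho of -0.915 and ran from 763 over 1201 to 1520.3. All 19 genes fell from 8 to 24 months at an adjusted p under 0.05, against 26.3% of ranked genes and 1043 of the 1698 with a symbol. At 24 months the slope on Chrna1 was below 0 in all 19, against 48.8% of ranked genes and 1093 of the 1698. Of these, 6 were called negative, against 0.921% and 76 of the 1698, and without rat 47 edgeR called 0 of the 19.

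Of 21 ranked genes of the adult fast fibre, 20 had a rho below 0 and 10 had one of -0.8 or less, with a median of -0.79, beside the same 1040 and 193 of 1698. Kcnj11, the pore of the ATP-sensitive potassium channel, had a rho of -0.915 and was 116, 184 and 251 TMM CPM. Clcn1, the chloride channel that steadies the fibre's membrane, had a rho of -0.903 and was 124, 173 and 250.3. Actn3, the alpha-actinin of fast fibres, had a rho of -0.879 and ran from 3113 over 6553 to 12053. Dhrs7c, an enzyme of the sarcoplasmic reticulum, had a rho of -0.891 and ran from 93.0 over 219 to 313. With age 19 of the 21 fell and 1 rose between 8 and 24 months, beside the same 26.3% and 1043 of 1698. At 24 months 19 of the 21 had a slope on Chrna1 below 0, beside the same 48.8% and 1093 of 1698. Of these, 5 were called negative, beside the same 0.921% and 76 of 1698, and without rat 47 edgeR called 0 of the 21. Library totals left 16 below 0, with a median of -0.75.

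Mitochondrial genes did not share this place in the rank. The 31 ranked genes of oxidative phosphorylation had a median rho of -0.19, with 24 below 0, against 1040 of the 1698 with a symbol. None was at -0.8 or less, and Ndufs3, a subunit of complex I, was lowest at -0.527. Under library totals the direction turned, with 29 above 0 and a median of 0.15, against 951 of the 1698 and a median of 0.12. All 31 nevertheless fell from 8 to 24 months at an adjusted p under 0.05. So did 26.3% of ranked genes and 1043 of the 1698 with a symbol. The 29 genes of the tricarboxylic acid cycle and fatty acid oxidation had a median of -0.02, with 14 above and 15 below 0, which became 19 and 10 under library totals. Only Idh3a, a subunit of isocitrate dehydrogenase, reached -0.8 among them, at -0.855, with values of 294, 393 and 498 TMM CPM. Of the 29 genes, 25 fell between 8 and 24 months and 0 rose by edgeR, at an adjusted p under 0.05. At 24 months the slope on Chrna1 was below 0 in all 31 and all 29 genes, against 48.8% of ranked genes and 1093 of 1698. Of these, 4 of the 31 and 0 of the 29 were called negative, against 0.921% and 76 of 1698. Without rat 47 edgeR called 0 in either list. The median slopes were -0.31 and -0.23, beside -0.31 for glycolysis and glycogen.

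Matrix genes lay at the high end. Of 26 ranked genes of the extracellular matrix list, 24 had a rho above 0 and 4 had one of 0.8 or more, with a median of 0.62, and under library totals all 26 were above 0. Beside Mgp and Timp1, these were Col5a2, a chain of collagen V, at 0.830 and Bmp1, the procollagen protease, at 0.806. Smoc2, a matricellular protein, followed at 0.770. Of the 1698 with a symbol, 658 were above 0 and 58 at 0.8 or more, and 951 were above 0 under library totals. Col5a2 was 45.6, 86.2 and 152 TMM CPM. From 8 to 24 months 22 of the 26 rose and 1 fell, against 21.4% of ranked genes and 555 of the 1698 with a symbol that rose. At 24 months 24 of the 26 had a slope on Chrna1 above 0, against 51.2% of ranked genes and 605 of 1698. Of these, 2 were called positive, against 0.895% and 70 of 1698, and without rat 47 edgeR called 0 of the 26.

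Genes of protein breakdown were divided. Of 15 ranked genes, 7 had a rho above and 8 below 0, with a median of -0.09 that became 0.22 under library totals. The lysosomal proteases Ctsb and Ctsh had a rho of 0.915 and 0.879. The ubiquitin ligases Wwp1 and Mul1 and the cullin adaptor Klhl38 had one of -0.818, -0.806 and -0.855. From 8 to 24 months 8 of the 15 rose and 7 fell. Of ranked genes 21.4% rose and 26.3% fell, and of the 1698 with a symbol 555 rose and 1043 fell.

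The p53 target list held 9 ranked genes with a median rho of 0.12, 5 above and 4 below 0, and 8 above 0 under library totals. Cdkn1a, the inhibitor of cyclin-dependent kinases, had a rho of only 0.345 and ran from 109 over 181 to 432 TMM CPM. All 18-month values of Cdkn1a lay above the 8-month range of 12.8 to 37.9. Its log2 fold change between 8 and 24 months was 4.45 ± 0.35 (SE), with an adjusted p of 3.08e-14 by edgeR's quasi-likelihood test. Sesn1 was at -0.709, Ano1 at 0.552, Phlda3 at 0.430 and Eda2r at 0.406. Among 17 ranked genes of the developmental sarcomere and myogenic growth list, 10 were above and 7 below 0, 13 and 4 under library totals. Chrd, for chordin, an antagonist of bone morphogenetic proteins, was highest at 0.879, with 23.0 and 26.0 TMM CPM in rats 20 and 15 and at most 13.2 in any other rat, and Eya1, a transcriptional cofactor, was lowest at -0.842.

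**Figure D3:**
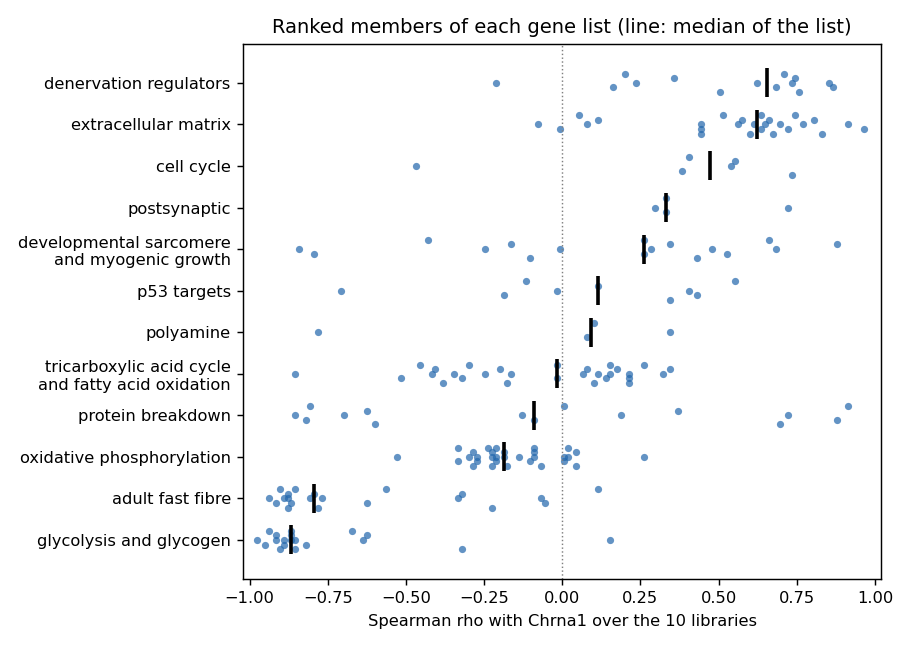
Spearman rho with Chrna1 over the 10 libraries for each ranked member of 12 gene lists, 1 point per gene, with a line at the list's median. Glycolysis and glycogen (median -0.87) and the adult fast fibre (-0.79) lie at the left, extracellular matrix (0.62) and denervation regulators (0.65) at the right, and with library totals instead of TMM the median of oxidative phosphorylation turns from -0.19 to 0.15, that of protein breakdown from -0.09 to 0.22 and that of the tricarboxylic acid cycle list from -0.02 to 0.26.

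Markers of tissue and of other cells moved with Chrna1 to differing degrees. Only markers with a symbol from the study's gene list could be measured. The 5 measured skeletal muscle markers of 7 (Actn3, Clcn1, Mybpc2, Cacna1s and Myoz1) were present in all 10 libraries, as the tissue label says. Their summed level was 7503 to 23983 TMM CPM, with a rho of -0.88 with Chrna1. Actn3 and Clcn1 are also in the adult fast fibre list above, and the muscle markers Ckm and Acta1 had no symbol there. Endothelial markers (6 measured, summed 184 to 452) had a rho of -0.22, blood markers (2 measured, 61.5 to 192) one of -0.31 and fat markers (3 measured, 230.2 to 865) one of 0.22, in which Plin4 was at -0.60, Lipe at 0.16 and Lpl at 0.54. Tendon and fibroblast markers (4 measured, 203 to 696) had a rho of 0.64, but the tendon factor Scx was at -0.13 while Fap, Col1a1 and Prrx1 were at 0.61 to 0.70. The macrophage markers (5 measured, 28.3 to 55.9) had a rho of 0.66. Of the Schwann cell markers only Cnp could be matched, at 23.0 to 54.6 with a rho of 0.77, and mast cell and lymphocyte markers, at no more than 9.81 in sum, had one of 0.61 and 0.48. No measured marker was at 0 in all 10 libraries. The part of these cells in the rank, and that of the matrix genes with it, was not tested.

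Whether the 2 ends of the rank changed with age was tested on the 8- and 24-month gastrocnemius libraries, with the 18-month libraries entering only the estimate of spread. Of the 100 highest genes, 28 were regulated upward (more than 2-fold, with an adjusted p under 0.05), against 3.33% of all ranked genes, and none downward. Of the 100 lowest, 34 were regulated downward against 2.18% and none upward. By the adjusted p alone, 85 of the 100 highest were higher at 24 months (21.4% of ranked genes) and 97 of the 100 lowest were lower (26.3%). The median log2 fold change was 0.61 for the 100 highest, with 98 above 0, and -0.83 for the 100 lowest, with all 100 below 0. Over the ranked genes the median was -0.03, with 46.9% above and 53.1% below 0.

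Scaling by library totals moved the median change over the genes tested from 0.02 to 0.36 on the log2 scale and gave medians of 0.96 and -0.50 at the ends, with 10 of the 100 lowest genes above 0. Of all genes tested, 12000 were then above 0 and 2946 below 0. Without rats 15 and 20 in the rank, the counts of regulated genes at the ends were 9 upward and 14 downward, and without rat 11 alone 17 upward. For Mgp the log2 fold change was 1.27 ± 0.20 (SE, adjusted p = 5.68e-07 by edgeR), and 8-month values of 73.0 to 127 did not overlap 24-month values of 178 to 363. For Pfkm it was -1.56 ± 0.17 (adjusted p = 3.90e-10), with 3153 to 5014 TMM CPM at 8 and 618 to 2392 at 24 months. Pfkm of the 10 rats of 18 months thus reached from inside the 8-month range into the 24-month range.

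**Figure D4:**
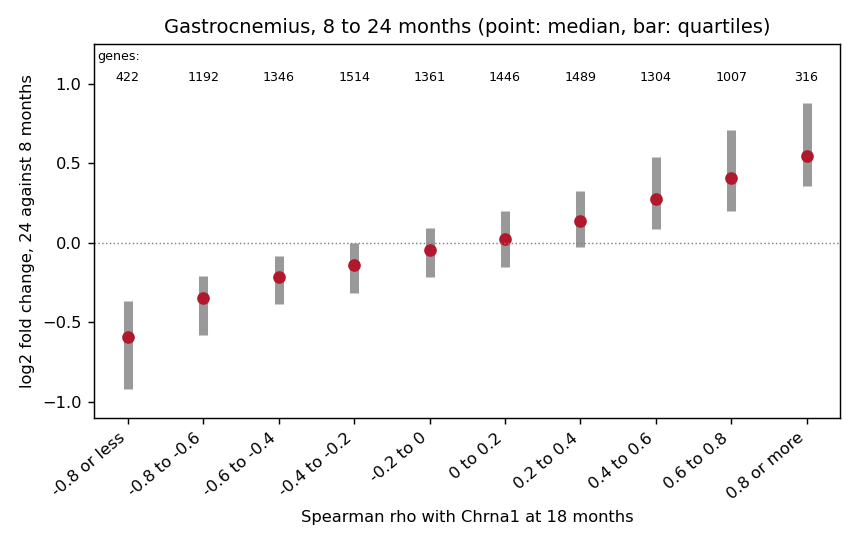
Log2 fold change from 8 to 24 months in gastrocnemius against rho with Chrna1 at 18 months, in 10 bins of rho, with the median of each bin as a point, its quartiles as a bar and its number of genes above. The medians rise from -0.59 in the 422 genes at -0.8 or less to 0.55 in the 316 genes at 0.8 or more, and with library totals the median over the genes tested is 0.36 instead of 0.02.

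A stricter question was whether the same genes go with Chrna1 between rats of another age. The slope of each gene's log2 level on the log2 level of Chrna1 was fitted within the 9 rats of 24 months and within the 10 of 8 months, with edgeR's quasi-likelihood test. At 24 months, 9 of the 100 highest genes had a positive slope at an adjusted p under 0.05, against 0.895% of ranked genes, and 12 of the 100 lowest a negative slope, against 0.921%. The slope was above 0 in 93 of the 100 highest, with a median of 0.12, and below 0 in 96 of the 100 lowest, with a median of -0.18, while 51.2% of ranked genes were above and 48.8% below 0. The counts of calls rested on rat 47, whose Chrna1 of 22.9 TMM CPM was far below the 104 to 283 of the other 24-month rats: without it 2 and 0 genes were called, 75 of the 100 highest had a slope above 0 and 75 of the 100 lowest one below 0, and calls over all genes went from 229 to 18. Without rat 46 and without rat 41, 4 and 5 of the 100 highest were called, and without rat 50, 7 of the 100 lowest. The shares of ranked genes by sign without rat 47 are not given here. Under library totals, which moved the median slope over the genes tested from 0.01 to 0.11, the slope was above 0 in all 100 highest genes and below 0 in 72 of the 100 lowest. Of all genes tested, 11913 were then above 0 and 2841 below 0.

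Of the 15 named genes at the high end, 3 had a slope that was called by edgeR, namely Lnx2 (0.40 ± 0.07 (SE), adjusted p = 0.00617), Klhl2 (0.38 ± 0.08, adjusted p = 0.0147) and Eef1a1 (0.32 ± 0.07, adjusted p = 0.0333). Chrd had a slope of 0.65 ± 0.09 (adjusted p = 0.00188). At the low end, Pfkm had a slope of -0.36 ± 0.09 (adjusted p = 0.0446), Asb11 one of -0.41 ± 0.08 (adjusted p = 0.0180) and Dhrs7c one of -0.58 ± 0.11 (adjusted p = 0.0119). Without rat 47, of these 7 genes Chrd alone was called (adjusted p = 0.00853), and the others had adjusted p between 0.0547 and 0.356. The slopes without it kept their sign, at 0.69 for Lnx2, 0.72 for Klhl2, 0.36 for Eef1a1 and 1.16 for Chrd. They were -0.45 for Pfkm, -0.40 for Asb11 and -0.97 for Dhrs7c. Mgp, the highest at 18 months, had a slope of 0.17 ± 0.09 that was not called (adjusted p = 0.389).

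For the 10 highest and 10 lowest genes with a symbol, the correlation with Chrna1 over the 9 rats of 24 months had the same sign as at 18 months in all 20. By the exact permutation test with Benjamini-Hochberg adjustment over the 20, only Klhl2 passed with Spearman's rho (0.933, p = 0.00075, adjusted p = 0.0150). With Pearson's r, Klhl2 (0.830, adjusted p = 0.0125), Arfgap3 (0.846, adjusted p = 0.0389) and Aldoa (-0.793, adjusted p = 0.0389) passed the exact permutation test. Without the 2 rats farthest from the median of Chrna1, rats 46 and 47, Pearson's r was 0.794 for Klhl2, 0.609 for Arfgap3 and -0.867 for Aldoa. It was 0.08 for Mgp and 0.03 for Tec, whose relation at 24 months thus rests on those rats, and 0.26 for Snx8, -0.22 for Cnst and -0.25 for Klhl21. In all, 19 of the 20 genes kept their sign, Fyco1 being the exception.

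At 8 months, when Chrna1 was at or below 16.8 TMM CPM, no gene of either end was called by edgeR, against 0.0175% of ranked genes called positive and 0% negative. At an unadjusted p under 0.05, 5 of the 100 highest and 7 of the 100 lowest genes passed, of 985 genes (6.68%) among all 14754 tested. DESeq2 called 1 of the 100 highest and none of the 100 lowest, and limma's voom called none. The slope was above 0 in 66 of the 100 highest and below 0 in 90 of the 100 lowest, against 49.3% and 50.7% of ranked genes. Whether the slopes at 8 and 24 months differ was not tested.

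In the triceps of the same 18-month rats, no relation of these genes to gastrocnemius Chrna1 was detected. With the Chrna1 level of the rat's gastrocnemius as the predictor, edgeR called no gene of either end and none of the 13520 tested (0% of ranked genes in each direction), with 227 (1.68%) at an unadjusted p under 0.05, of which 1 was in each end. DESeq2 and voom called none at either end. The slope was above 0 in 31 of the 100 highest and below 0 in 33 of the 100 lowest, against 52.1% and 47.9% of ranked genes, and these counts varied with 1 rat left out, to 47 and 46 without rat 17 and to 20 and 25 without rat 18. Chrna1 itself had a rho of 0.16 (permutation p = 0.655, adjusted p = 0.918) and a Pearson r of 0.13 (permutation p = 0.722) between the muscles of the 10 rats, with p-values adjusted over 3 ages. The rho was -0.08 at 24 months (exact permutation test, adjusted p = 0.918, n = 9) and 0.04 at 8 months (permutation test, adjusted p = 0.918, n = 10).

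Between 8 and 24 months in triceps, 11 of the 100 highest genes rose at an adjusted p under 0.05 by edgeR's quasi-likelihood test, against 2.11% of ranked genes, and 1 of the 100 lowest fell, against 0.763%. The log2 fold change was above 0 in 96 of the 100 highest, with a median of 0.30, and below 0 in 97 of the 100 lowest, with a median of -0.24, against 50.9% above and 49.1% below 0 of ranked genes. With the Chrna1 of the triceps itself as the predictor at 18 months, the slope was above 0 in 76 of the 100 highest and below 0 in 88 of the 100 lowest. Over all genes tested 1 was called, and it was among the 100 highest. The share of ranked genes with each sign is not given for this predictor, so that 76 and 88 cannot be set against it.

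**Figure D5:**
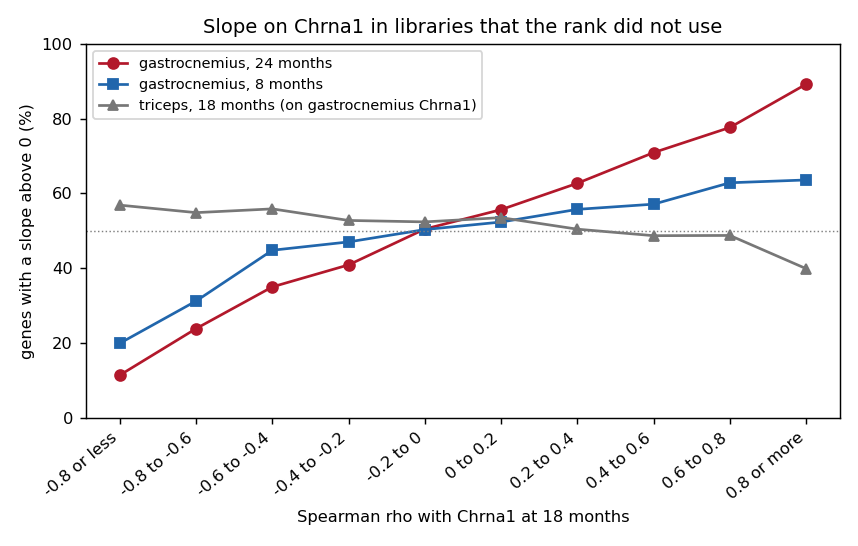
Percent of genes with a slope on Chrna1 above 0 in libraries that the rank did not use, in 10 bins of rho at 18 months, for gastrocnemius at 24 months (red), gastrocnemius at 8 months (blue) and triceps at 18 months against the gastrocnemius Chrna1 of the same rat (grey). The red line rises from 11.4 to 89.2% and the blue from 19.9 to 63.6%, while the grey goes from 56.9 to 39.9%.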

How the data were processed

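Counts of RNA-seq reads per gene were analysed for 58 libraries of 29 rats. Per the labels and the study's methods, the authors sequenced TruSeq libraries, aligned the reads to Rnor 6.0 with STAR 2.3.0e, after CASAVA 1.8 (versions from the submitters' processing notes), dropped reads of low mapping score and counted the rest per gene with HTSeq in union mode. The deposited values are these raw counts for 32545 Ensembl genes, and the strand option and Ensembl release are not given in the sources used here, so values of overlapping genes are uncertain.

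The 14947 genes that reached 20 reads in any library were scaled by TMM in edgeR 4.0.16 (R 4.3.3). The Spearman correlations used log2 (TMM CPM + 0.5) over genes with a mean of 50 or more reads. Age was tested with edgeR's quasi-likelihood F test on all 58 libraries with 1 mean for each of 6 groups, and slopes on Chrna1 on the 19 gastrocnemius libraries of 8 and 24 months or on the 10 triceps libraries of 18 months, all adjusted by Benjamini and Hochberg. DESeq2 1.42.0, limma 3.58.1 (voom), other scalings, filters and leaving out rats were alternatives. The members, the lists and the rules were chosen with earlier results of these data known. The study housed rats in pairs, which rats shared a cage is not given in the sources used here, and p-values measure the spread between libraries of these rats. The main age test held no term for the rat, although each rat gave a library of each muscle. With limma's voom and the within-animal correlation, 28 of the 100 highest were regulated upward and 36 of the 100 lowest downward.

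Genes named are Chrna1, the 15 highest and 15 lowest by rho with a symbol, up to 5 per list by absolute rho (all for the postsynaptic and denervation lists), 2 without a symbol at each end, and those beside the limits of 100. The markers are named as whole lists, and 1 gene of the low end is not reported here. Symbols were read from images of the study's supplementary gene list, where 1956 could be used after a check against RefSeq names and 55 had l and 1 exchanged. On simulated data with 14755 genes, the age test recovered 90 of 100 genes changed by a log2 of 1 and 100 of 100 changed by 2, with 11 false calls, and the slope test at 24 months recovered 71 of 100 at a log2 slope of 0.5 and 96 of 100 at 1, with 6 false calls. The change with age in triceps was added after the data were seen.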

Additional observations from a re-analysis of the deposited data

Results flagged for a closer look

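In each group of 9 or 10 libraries, a library was set apart where its gap to the nearest other, divided by the group's range, passed Dixon's 95% limit. This was checked in 57 groups of values, and chance alone gives about 1 in 20, so about that share can arise without any cause. Of the named genes in 18-month gastrocnemius, 5 had a highest library of this kind. Rat 14 stood apart in Chrne, at 28.4 TMM CPM with the next at 19.1, and in Myod1, at 119.8 with the next at 67.8. Rat 11 stood apart in Hdac5, at 158 with the next at 109.7, and in Apln, at 9.72 with the next at 5.32. Rat 19, with the least Chrna1, stood apart in Ppm1a, at 155 with the next at 129. Chrna1 itself had no such library in any of the 6 groups on this linear scale. On the log2 scale used for the correlations and slopes, a check added after the data were seen, rat 47 at 24 months did, with a gap of 0.599 of the range against a limit of 0.493, at 22.9 TMM CPM with the next at 104.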

How the results depend on the processing

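Several counts moved by more than 1.5 times under another choice. The 316 genes with a rho of 0.8 or more became 704 with library totals, 209 with a mean of 200 or more reads, 164 with Pearson's r, 169 with Pearson's r at a pseudocount of 2, and 324 to 545 with a rat left out. The 422 genes at -0.8 or less became 117 with library totals and 404 to 681 with a rat left out. From 8 to 24 months, 28 genes regulated upward among the 100 highest became 49 with library totals in the test, 85 with no limit on the fold change and 17 to 30 with a rat left out. The 34 regulated downward among the 100 lowest became 14, 97 and 23 to 42 in the same way. Further choices were made after seeing the data: without rats 14 and 17, 532 and 728 genes passed the limits of rho, and without rats 15 and 20 the regulated genes at the ends were 9 and 14. For the slope at 24 months, the 9 positive calls became 17 with DESeq2, 31 with library totals, 3 with only the libraries of this age and 2 to 9 with a rat left out, and the 12 negative calls became 27 with DESeq2, 1 with only this age and 0 to 14. At 8 months the positive calls went from 0 to 1 with DESeq2, and in triceps from 0 to 1 with the Chrna1 of the triceps itself as the predictor. With library totals no gene in place of 1 passed at 24 months with Spearman's rho (0 calls). The cause of these moves was not tested, except that dropping a limit or libraries changes the counts by construction.

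Replicate numbers are shared between the ages, but they do not pair different rats: over 9 pairs the mean correlation of deviations was 0.034 (-0.152 to 0.177), 4 were over 0.1, and in 0 pairs did a library correlate best with its own number. A fit with the replicate number as a block gave 28 genes upward and 36 downward at the ends. For the 30 genes (15 at each end), 318 of the alternative values of rho stayed within the jackknife error of rho, 12 moved and 0 changed sign. Most of these alternatives left out 1 rat, and the jackknife error is computed from such values, so their staying within it was largely fixed in advance. All 12 that moved were values under library totals, and all but Ctsb were of the low end, such as Fyco1 from -0.939 to -0.745.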

Other observations

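Proliferation genes could be ranked only in part, since 19 of 25 cell cycle genes had a mean under 50 reads. Of the 6 ranked, 5 had a rho above 0 (6 with library totals), led by Tacc3, a spindle protein, at 0.733, and Mki67, the Ki-67 proliferation antigen, was at 0.552 with 0.828, 2.2 and 4.04 TMM CPM as lowest, median and highest. Of the 4 ranked polyamine genes, Amd1, for the decarboxylase that supplies spermidine synthesis, was at -0.782, and Azin1, Sat1 and Sms were at 0.345, 0.103 and 0.079.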
